A study of Mus musculus with 12 samples.

Results

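The 4 untreated wild-type (WT) livers of this mouse study fell into 2 pairs by their level of Dbp, a transcription factor transcript that is known to cycle strongly over the day in liver. A liver was placed in the high-Dbp pair when its log2 value for Dbp was above 10 and in the low-Dbp pair when it was below 9. Dbp read 11.19 and 11.39 on untreated replicates 2 and 4, the high-Dbp pair, and 8.14 and 7.59 on untreated replicates 1 and 3, the low-Dbp pair. No untreated liver lay between the thresholds, so all 4 of the untreated livers, out of 12 livers in the series, were used. The pairs were chosen by the measured values of Dbp and were then compared over all 19938 genes. That comparison is a description without a test, because the samples were sorted by a value read from the same arrays. The sources used here do not give the hour of collection of each liver.

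All 12 livers came from male mice of the C57Bl/6 background strain, kept under 12-hour light-dark cycles with chow and water always available. The sources used here give no ages. Besides the 4 untreated WT livers there were 4 from WT mice given lipopolysaccharide (LPS), a bacterial cell wall component, at 1 µg/kg, and 4 from Nfkb S534A mice given the same dose. S534A mice are homozygous for a knock-in in exon 10 of the p65 gene that puts alanine in place of serine. Targeting used PTL1 embryonic stem cells and FLPe to remove the Neo cassette, followed by 5 backcrosses to C57Bl6/J. No untreated S534A liver was analysed here, and the interval from LPS to collection is not stated in these sources. The labels do not say whether each liver sample came from its own animal, so the p-values cover only the spread from sample to sample, which may be technical.

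RNA was read on 12 Affymetrix GeneChip arrays, 1 per liver, as log2 values after RMA. Over all probe sets the median of an array ran from 6.15 to 6.32. Among the untreated arrays the shape of the distribution moved with the pairs. The medians were 6.22 and 6.23 in the low-Dbp pair and 6.17 and 6.15 in the high-Dbp pair, and the upper quartiles were 8.19 and 8.19 against 8.25 and 8.33. The correlation over probe sets was 0.996 within the low-Dbp pair and 0.991 within the high-Dbp pair, and 0.985 to 0.991 between the pairs. Replicate 2 of the high-Dbp pair correlated at 0.9912 and 0.9914 with low-Dbp replicates 1 and 3, and at 0.9912 with replicate 4. Over all probe sets replicate 2 was thus no closer to its own pair than to the other. The part of these array-wide differences in the gene differences below was not tested. With 2 arrays in each pair, precision is limited by the number of arrays.

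In the mammalian clock, the transcription factors encoded by Arntl (BMAL1) and Clock bind E-box sequences and activate the Per, Cry, Nr1d, Bhlhe40, Bhlhe41, Ciart and Dbp genes, whose products include repressors of that activation. The PAR bZIP factors DBP, TEF and HLF activate genes through D-box sequences, where NFIL3 acts as their repressor. The nuclear receptors REV-ERB (Nr1d1 and Nr1d2) repress, and ROR receptors activate, Arntl and Nfil3 through ROR elements. In mouse liver Dbp and the Per genes are known to peak in the light phase or around its end, and Arntl nearly opposite to them. Liver also couples this clock to feeding, to bile acid and lipid synthesis and to protein folding in the endoplasmic reticulum.

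The sequences below show these elements in the 250 bases before the start of some genes whose pairs did not overlap. They are examples with a match in the window and not a ranking by difference. They are from RefSeq, build GRCm38.p6, and are written 5′ to 3′ on the gene's own strand with the matched element in capitals. Ciart (chr3:95882229-95882478, minus strand) is shown for 3 E-boxes, which start 116, 58 and 44 bases before the gene. Per3 (chr4:151044666-151044915, minus strand) is shown for 2 D-boxes, and Per1 (chr11:69098699-69098948, plus strand) for an E-box and a D-box. Nfil3 (chr13:52981040-52981289, minus strand) is shown for a ROR element on the opposite strand, and Creld2 (chr15:88819396-88819645, plus strand) for an endoplasmic reticulum stress element (ERSE) on the opposite strand.
Ciart: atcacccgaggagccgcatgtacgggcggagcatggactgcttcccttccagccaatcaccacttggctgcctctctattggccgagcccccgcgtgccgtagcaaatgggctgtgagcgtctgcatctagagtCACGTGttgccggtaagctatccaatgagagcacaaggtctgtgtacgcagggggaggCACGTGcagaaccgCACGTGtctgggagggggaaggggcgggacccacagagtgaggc
Per3: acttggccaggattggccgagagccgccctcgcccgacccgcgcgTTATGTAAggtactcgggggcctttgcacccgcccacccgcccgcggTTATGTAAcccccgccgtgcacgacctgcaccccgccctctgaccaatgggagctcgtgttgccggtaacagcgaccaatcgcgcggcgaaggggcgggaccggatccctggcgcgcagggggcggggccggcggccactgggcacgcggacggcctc
Per1: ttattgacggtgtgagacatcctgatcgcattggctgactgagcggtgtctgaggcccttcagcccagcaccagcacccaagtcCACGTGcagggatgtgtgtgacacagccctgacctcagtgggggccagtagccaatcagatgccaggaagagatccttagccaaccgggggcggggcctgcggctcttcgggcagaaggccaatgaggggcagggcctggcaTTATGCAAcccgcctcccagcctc
Nfil3: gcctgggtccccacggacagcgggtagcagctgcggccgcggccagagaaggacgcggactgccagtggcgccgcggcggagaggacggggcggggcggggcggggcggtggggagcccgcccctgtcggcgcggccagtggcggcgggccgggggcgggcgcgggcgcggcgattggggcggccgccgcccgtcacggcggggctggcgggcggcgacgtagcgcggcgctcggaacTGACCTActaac
Creld2: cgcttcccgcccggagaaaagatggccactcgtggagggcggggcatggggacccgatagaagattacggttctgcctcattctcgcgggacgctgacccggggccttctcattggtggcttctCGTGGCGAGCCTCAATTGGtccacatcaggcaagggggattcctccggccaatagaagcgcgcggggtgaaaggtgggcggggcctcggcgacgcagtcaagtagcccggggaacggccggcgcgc

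The search covered both strands of that window for the E-box CACGTG, the D-boxes TTATGTAA, TTACGTAA and TTATGCAA, the ROR elements TAGGTCA and TGGGTCA, and the ERSE, which is CCAAT and CCACG with 9 bases of any kind between them. None of these motifs is contained in another. Of the 17 clock genes measured, 15 had a promoter in the RefSeq table, with 20 promoters in all. An E-box was found in 6 of those 20 promoters (30.0%), a D-box in 2 (10.0%) and a ROR element in 1 (5.0%). Over all 32851 promoters of the table the shares were 6.02% for the E-box, 1.61% for the D-box, 5.38% for the ROR element and 0.113% for the ERSE. Bhlhe41, Cry1 and both promoters of Tef also held an E-box, while the window of Dbp and both windows of Arntl held none of these letters. The windows of Usp2, Nr1d2, Clock and Sdf2l1 held none either. Cry1 is a gene whose values overlapped between the pairs. A match is a description of the letters and was not tested as a binding site.

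Each of the other 4 transcripts used to check the label lay on its own side in the 2 pairs. Ciart and Per3, which encode repressors of the clock, were higher wherever Dbp was high. Arntl and Nfil3 were lower there. Genes known to peak with Dbp and genes known to peak opposite to it thus lay on opposite sides. Whether the pairs differ in circadian phase was not tested, and they are called here by their Dbp level. The pairs did not overlap for 14 of the 17 clock genes analysed here, of which 11 were higher and 3 lower in the high-Dbp pair. Over all genes the pairs did not overlap for 56.2%, with 22.2% higher and 34.0% lower in the high-Dbp pair. The clock genes had a mean log2 value of 8.82 on the untreated arrays. Of all genes with a mean of 8 to 10 there, 43.8% were higher and 18.3% lower with no overlap. Where non-overlap was joined with a difference of at least 2-fold, 11 of the 17 clock genes were apart, 9 higher and 2 lower. Over all genes 0.737% were apart in that sense, 0.466% higher and 0.271% lower, which is 147 genes. The clock list was chosen with the pairs already known to differ, and Dbp itself defined them, so these counts are a description.

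Among the PAR bZIP factors, Dbp differed by 3.43 (10.8-fold) between the pair means, with a pooled SD of 0.29 within the pairs. Tef read 10.24 and 10.43 in the high-Dbp pair and 8.36 and 8.51 in the low-Dbp pair, a difference of 1.90 (3.72-fold). Hlf, the third of the family, read 9.44 and 9.49 against 8.76 and 8.66, a difference of 0.75 (1.69-fold). All 3 factors were higher in the high-Dbp pair, in the order Dbp, Tef, Hlf by size of difference. Nfil3, their repressor at D-boxes, read 7.75 and 7.61 against 9.04 and 9.04, and was 2.57-fold lower in the high-Dbp pair.

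The repressor limb held the widest difference on the arrays. Ciart, whose product represses CLOCK-BMAL1, read 10.75 and 10.79 in the high-Dbp pair and 6.86 and 4.94 in the low-Dbp pair. The pair means differed by 4.86 (29.1-fold). The low-Dbp livers also differed from each other by much more than the high-Dbp livers did, and the liver with the lower Dbp value, replicate 3, was the lower for Ciart. A second Ciart probe set gave a difference of 3.74 in the same direction. Per1 read 9.27 and 8.77 against 6.58 and 6.63, which is 5.32-fold higher. Per3 read 8.71 and 8.61 against 6.50 and 6.37, which is 4.66-fold higher. Per2 read 9.09 and 8.70 against 7.33 and 7.17, which is 3.12-fold higher. The 3 Per genes, which encode the PERIOD repressors, were therefore all higher in the high-Dbp pair with no overlap.

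Bhlhe41, encoding the E-box repressor DEC2, read 7.62 and 8.39 in the high-Dbp pair and 5.54 and 5.59 in the low-Dbp pair (5.43-fold). Its relative Bhlhe40 (DEC1) read 11.12 and 10.58 against 9.95 and 9.49 (2.18-fold). Nr1d2, encoding REV-ERB beta, read 10.41 and 10.44 against 9.20 and 9.34 (2.22-fold). Cry2, a cryptochrome repressor, read 9.35 and 9.52 against 8.63 and 8.45, a difference of 0.90 below the 2-fold mark. These 4 genes lay on the same side as Dbp.

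Nr1d1 and Cry1 did not follow the pairs. Nr1d1, encoding REV-ERB alpha, read 10.79 and 11.71 in the high-Dbp pair and 11.63 and 10.62 in the low-Dbp pair. Each pair thus held a liver near 11.7 and a liver near 10.7, and the pair means differed by 0.13. Cry1 read 7.52 and 7.39 against 7.56 and 7.14, a difference of 0.10 with overlap.

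In the activator limb, Arntl read 6.29 and 6.20 in the high-Dbp pair and 9.03 and 9.08 in the low-Dbp pair. It was 7.03-fold lower where Dbp was high, with a pooled SD of 0.05 within the pairs. Clock, the partner of Arntl, read 9.14 and 9.58 against 10.11 and 10.13, a difference of -0.76 with no overlap. Rora, encoding an activator of Arntl, read 9.95 and 9.86 against 9.92 and 10.01, and the pairs overlapped, with a difference of -0.06 that was 0.01 with each array centred on its median.

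**Figure D1:**
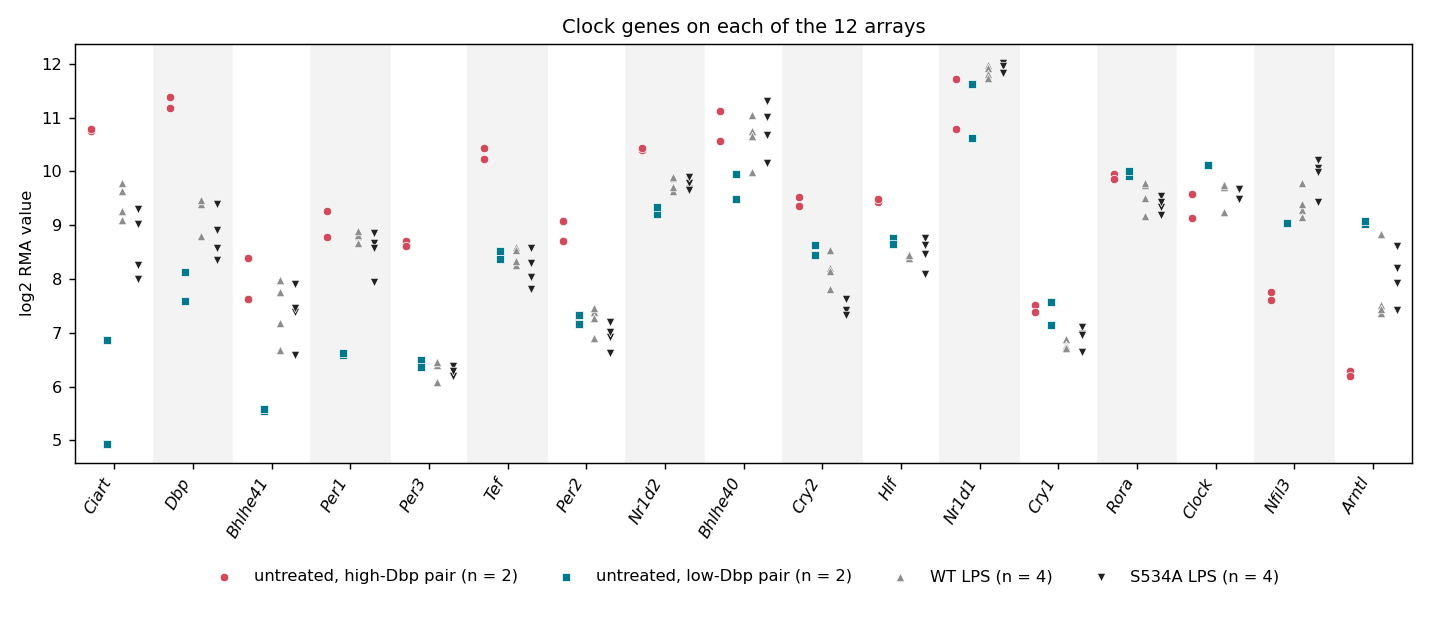
Log2 RMA value (vertical axis) of the 17 measured clock genes (horizontal axis, ordered by the difference between the pairs) on each of the 12 arrays; every point is 1 array, coloured by pair or LPS group. Ciart and Dbp stand at the left with the high-Dbp pair far above the low-Dbp pair, Arntl at the right with the order turned, and Nr1d1 shows 1 high and 1 low liver in each pair.

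Over all genes, 93 were apart and higher and 54 apart and lower in the high-Dbp pair. The edge of the 2-fold mark runs through a continuous range: Slc2a5 at 1.00 was just inside among the higher genes and Nr0b2 at -1.02 among the lower, while Gadd45g at 0.99 and Aqp7 at -0.99 lay just outside. Genes were ranked by the gap, the lowest array of the higher pair minus the highest array of the lower pair. The 15 widest gaps among genes higher in the high-Dbp pair belonged to Ciart (3.88), Usp2 (3.71), Dbp (3.05), Rgs16 (2.41), Wee1 (2.33), Per1 (2.14), Per3 (2.11), Pfkfb3 (2.11), Nrg4 (2.03), Bhlhe41 (2.03), Coq10b (2.01), Tef (1.73), Gdap10 (1.58), Gpcpd1 (1.54) and Slc20a1 (1.40). Of these 15 genes, 6 are clock genes of the list, and Usp2, Rgs16, Wee1 and Coq10b are in the list of liver clock outputs. Nrg4, a ligand of the epidermal growth factor family, read 9.03 and 8.57 in the high-Dbp pair and 6.25 and 6.54 in the low-Dbp pair (5.29-fold). Gpcpd1, a phosphodiesterase that releases choline from glycerophosphocholine, read 11.37 and 11.54 against 9.66 and 9.83 (3.26-fold). Slc20a1, a phosphate transporter, read 10.15 and 10.18 against 8.75 and 8.69 (2.72-fold).

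Among genes lower in the high-Dbp pair the 15 widest gaps were those of Arntl (2.74), Mir122 (2.70), Tubb2a (2.02), Acnat2 (1.99), Mmd2 (1.83), Pdk4 (1.80), H1f2 (1.57), Chic1 (1.54), Creld2 (1.48), Gask1a (1.44), Chka (1.29), Ppp1r3c (1.29), Nfil3 (1.28), Ddc (1.28) and Slc45a3 (1.25). Arntl and Nfil3 are clock genes, and Tubb2a, Ppp1r3c and Slc45a3 are in the list of clock outputs. Mir122, the gene of a microRNA abundant in hepatocytes, read 4.98 and 5.47 in the high-Dbp pair and 8.18 and 8.59 in the low-Dbp pair (8.91-fold lower). Whether its probe set reads the precursor or the primary transcript was not tested. Acnat2, an acyltransferase that conjugates fatty acids to amino acids, read 6.28 and 6.95 against 8.94 and 9.23 (5.54-fold lower). Chka, choline kinase, read 7.68 and 8.02 against 9.31 and 9.53 (2.98-fold lower), the reverse of Gpcpd1. H1f2, a linker histone, read 9.29 and 9.13 against 10.85 and 10.92 (3.21-fold lower). In each gene of both lists of 15 the nearest arrays of the pairs were themselves more than 2-fold apart, as they were for 42 of the 93 higher and 26 of the 54 lower genes.

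**Figure D2:**
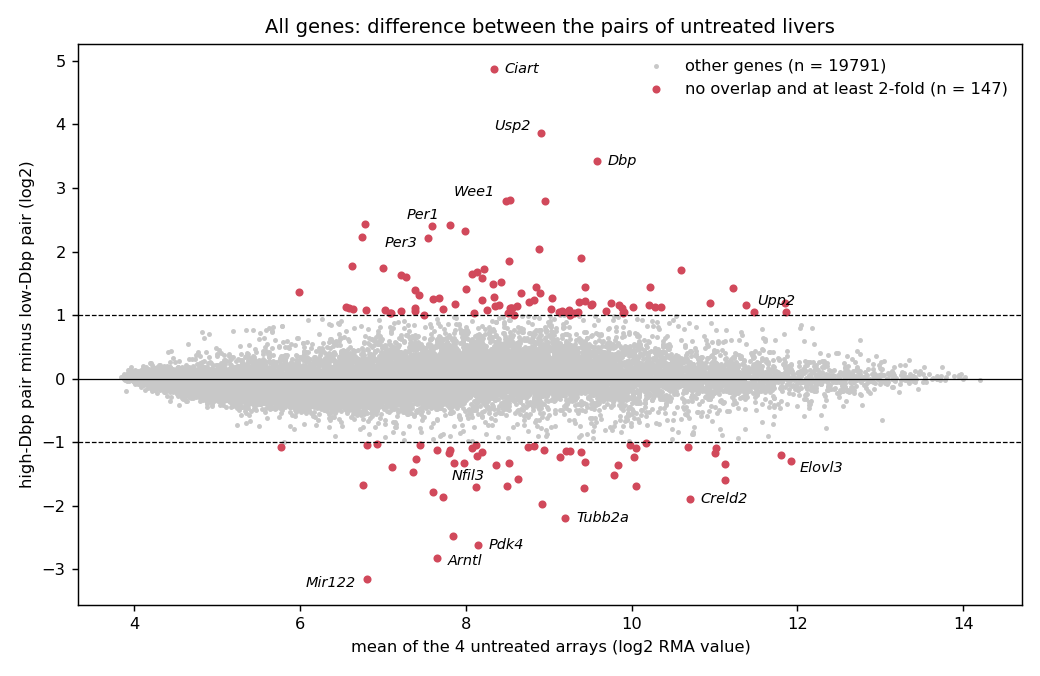
Difference between the pair means (vertical axis, high-Dbp minus low-Dbp pair, log2) against the mean of the 4 untreated arrays (horizontal axis, log2 RMA value) for 19938 genes; red points mark the 147 genes with no overlap and at least 2-fold, and dashed lines mark 2-fold. Ciart, Usp2 and Dbp stand highest, Mir122 and Arntl lowest, and most genes lie close to 0.

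Differences depended on the level of a gene. Genes with a mean of 5 to 6 had a median difference of -0.13, and 51.3% of them were lower with no overlap against 5.60% higher. Genes with a mean of 8 to 10 had a median difference of 0.10, and 43.8% of them were higher with no overlap. With each array centred on its median, the 22.2% higher and 34.0% lower over all genes became 32.4% and 20.4%, and the median over all genes went from -0.05 to 0.02. Matching the arrays at each level, an alternative chosen after seeing the data, gave 25.9% and 22.1%. The genes apart at 2-fold moved less, to 115 higher and 45 lower when centred and 82 and 59 when matched. Small differences are therefore given below as values, and non-overlap counts of gene lists as descriptions. Except for the clock genes, these list counts were not repeated with centred or matched arrays.

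Of the liver clock outputs, a list of genes known to cycle under the clock in liver, 22 of 23 were measured and 12 were higher and 7 lower with no overlap (54.5% and 31.8%, beside 22.2% and 34.0% of all genes). At 2-fold, 10 were higher and 5 lower, where 0.466% and 0.271% of all genes were. Of all genes with a mean of 8 to 10, 43.8% were higher and 18.3% lower with no overlap. Usp2, a deubiquitinase that acts on clock proteins, read 10.96 and 10.73 in the high-Dbp pair and 6.94 and 7.01 in the low-Dbp pair (14.6-fold). Rgs16, a regulator of G protein signalling, read 10.21 and 9.66 against 7.00 and 7.24 (7.02-fold). Wee1, a kinase that holds back entry into mitosis, read 9.74 and 10.02 against 7.42 and 6.76 (6.93-fold). These 3 genes each had both high-Dbp livers more than 4-fold above both low-Dbp livers. Tubb2a, a beta-tubulin, ran the other way at 8.15 and 8.05 against 10.42 and 10.18 (4.58-fold lower). Coq10b, needed for coenzyme Q function, read 9.93 and 9.88 against 7.88 and 7.86, and Ppp1r3c, a glycogen-targeting subunit of protein phosphatase 1, read 8.71 and 8.41 against 10.56 and 10.00.

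Among 7 measured targets of the PAR bZIP factors, 5 were higher and 1 lower with no overlap (71.4% and 14.3%, beside 22.2% and 34.0% of all genes), and the list median was 0.25. Of all genes with a mean of 10 to 15, 32.7% were higher and 22.3% lower with no overlap. Nr1i3, encoding the xenobiotic receptor CAR, read 11.46 and 11.62 in the high-Dbp pair and 10.22 and 10.47 in the low-Dbp pair, a difference of 1.19. Cyp2b10, a cytochrome P450 that CAR induces, read 9.27 and 8.78 against 8.00 and 7.98, a difference of 1.04. Alas1, the first enzyme of heme synthesis, read 12.48 and 12.67 against 11.48 and 12.07, a difference of 0.80. Among 11 measured post-translational regulators of the clock, such as kinases and ubiquitin ligases, Usp2 alone was apart at 2-fold, and the deacetylase Sirt1 came next at 0.50.

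**Figure D3:**
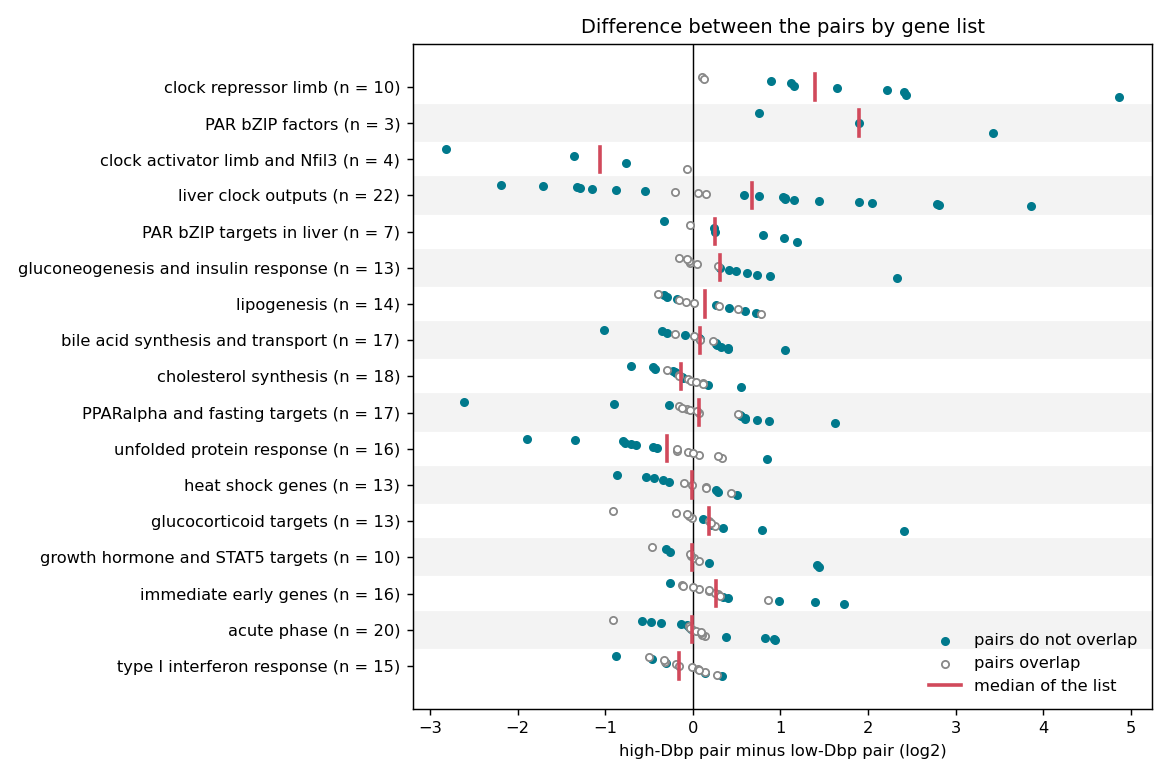
Difference between the pair means (horizontal axis, high-Dbp minus low-Dbp pair, log2) for the measured members of 17 gene lists (vertical axis, with the number measured); each point is 1 gene, filled where the pairs do not overlap, and the red bar is the median of the list. The clock repressor limb has a median of 1.40 and the clock activator limb with Nfil3 of -1.06, while most metabolic lists have medians near 0.

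Of 13 glucose and insulin response genes, 7 were higher and 0 lower with no overlap (53.8% higher, beside 22.2% of all genes and 43.8% of genes with a mean of 8 to 10), and the other 6 overlapped. Pfkfb3, a driver of glycolysis, read 9.03 and 9.30 in the high-Dbp pair and 6.92 and 6.74 in the low-Dbp pair (5.03-fold). Igfbp2, an insulin-like growth factor binding protein, read 11.30 and 11.51 against 10.47 and 10.57, a difference of 0.88. Pck1, the gluconeogenic enzyme, read 13.11 and 13.02 against 12.42 and 12.47, a difference of 0.62. Only Pfkfb3 of this list was apart at 2-fold, and its list median was 0.31 beside -0.05 over all genes.

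PPAR alpha and fasting targets went both ways, with 7 of 17 higher and 3 lower with no overlap. These shares of 41.2% and 17.6% were near the 43.8% and 18.3% of all genes with a mean of 8 to 10. Pdk4, a kinase that shuts down pyruvate dehydrogenase in fasting, read 6.82 and 6.86 in the high-Dbp pair and 10.25 and 8.66 in the low-Dbp pair (6.12-fold lower). The 2 low-Dbp livers differed from each other in Pdk4 as well. Acot3, an acyl-CoA thioesterase, read 6.96 and 9.10 against 6.07 and 6.74, so that its difference of 1.63 rested largely on replicate 4. Angptl4, an inhibitor of lipoprotein lipase, read 9.39 and 9.83 against 8.53 and 8.95. Cyp4a14, a fatty acid hydroxylase, read 10.43 and 11.96 against 12.01 and 12.18, its difference of -0.90 being carried by replicate 2. Pdk4 and Acot3 were the only members apart at 2-fold.

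Bile acid genes included Cyp7a1, the rate-limiting enzyme of bile acid synthesis, and Nr0b2, which encodes SHP, a repressor of Cyp7a1. Cyp7a1 read 12.16 and 11.86 in the high-Dbp pair and 10.56 and 11.35 in the low-Dbp pair (2.08-fold higher). Nr0b2 read 10.01 and 9.33 against 10.87 and 10.50 (2.02-fold lower). No other member of this list was apart at 2-fold. In all, 9 of 17 bile acid genes were higher and 4 lower with no overlap (52.9% and 23.5%, beside 22.2% and 34.0% of all genes), most by less than 0.5. Of all genes with a mean of 10 to 15, 32.7% were higher and 22.3% lower with no overlap.

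Of 14 lipogenic genes 4 were higher and 3 lower with no overlap (28.6% and 21.4%, beside 22.2% and 34.0% of all genes), and 0 were apart at 2-fold, where 0.737% of all genes were. Of all genes with a mean of 10 to 15, 32.7% were higher and 22.3% lower with no overlap. Acaca, acetyl-CoA carboxylase, read 10.55 and 10.26 in the high-Dbp pair and 9.77 and 9.59 in the low-Dbp pair, a difference of 0.72. Thrsp, a lipogenic regulator, differed by 0.77 with overlap. Of 18 cholesterol synthesis genes 2 were higher and 8 lower with no overlap (11.1% and 44.4%) and 0 were apart. Mvd differed by -0.70 and Hmgcs1 by -0.46, both enzymes of the mevalonate route, while Stard4, a sterol carrier, differed by 0.55. Their list median was -0.14, and the part of the level-dependent shift in it was not tested.

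Several genes of protein folding in the endoplasmic reticulum were lower in the high-Dbp pair, and others overlapped. Of the 16 genes of the unfolded protein response, the program that raises chaperones when folding is overloaded, 8 were lower and 1 higher with no overlap (50.0% and 6.25%, beside 34.0% and 22.2% of all genes), 7 overlapped, and 2 were apart at 2-fold. The list median was -0.29. Of all genes with a mean of 10 to 15, 22.3% were lower and 32.7% higher with no overlap. Creld2 read 9.58 and 9.93 in the high-Dbp pair and 11.41 and 11.88 in the low-Dbp pair (3.71-fold lower). Sdf2l1, a cofactor of the chaperone BiP, read 10.73 and 10.17 against 11.72 and 11.86, a difference of -1.34. Manf, a secreted folding factor, read 9.35 and 9.21 against 10.08 and 10.09, a difference of -0.80. Herpud1, a component of the degradation machinery, stood on the other side at 12.47 and 12.46 against 11.71 and 11.53, a difference of 0.85.

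Further chaperone genes are named here after their values were seen. Hspa5, encoding BiP, read 11.89 and 12.02 in the high-Dbp pair and 12.62 and 12.83 in the low-Dbp pair, a difference of -0.77. Pdia4, Pdia6, Hsp90b1 and Dnajc3 were also lower with no overlap. Hyou1, a BiP nucleotide exchange factor that is not in the list, read 10.47 and 10.36 against 11.48 and 11.69 (2.25-fold lower). The stress mediators Ddit3, Atf4 and Xbp1, in contrast, overlapped between the pairs. Among 13 heat shock genes of the cytosol and mitochondria, 3 were higher and 5 lower with no overlap (23.1% and 38.5%). These shares stood beside 22.2% and 34.0% of all genes, and 43.8% and 18.3% of genes with a mean of 8 to 10. Hsp90aa1 read 10.33 and 10.27 against 11.17 and 11.16, a difference of -0.86, and its cochaperone Stip1 differed by -0.53. The cold-induced Cirbp differed by -0.48.

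The ERSE of the Creld2 promoter had counterparts in this group. Of the 15 unfolded protein response genes with a promoter in the table, 5 held an ERSE in the window. They were Creld2, Hspa5, Hsp90b1, Pdia6 and Dnajc3, and all 5 were among the 8 genes that were lower with no overlap, 7 of which had a promoter. The share over all promoters was 0.113%. Chaperone genes are known for this element, so the share describes the list. Among all genes apart and lower, 3 of 49 promoters (6.12%) held an ERSE, and among those apart and higher 0 of 87 did. The E-box was found in 16 of the 87 promoters of genes apart and higher (18.4%) and in 6 of the 49 of genes apart and lower (12.2%). A D-box was found in 7 of the 87 (8.05%) and in 0 of the 49, and a ROR element in 2 of the 87 (2.30%) and 4 of the 49 (8.16%). The 7 promoters with a D-box belong to 5 genes, because overlapping promoters of Ak4 share a site. Over all promoters the shares were 6.02% for the E-box, 1.61% for the D-box and 5.38% for the ROR element.

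**Figure D4:**
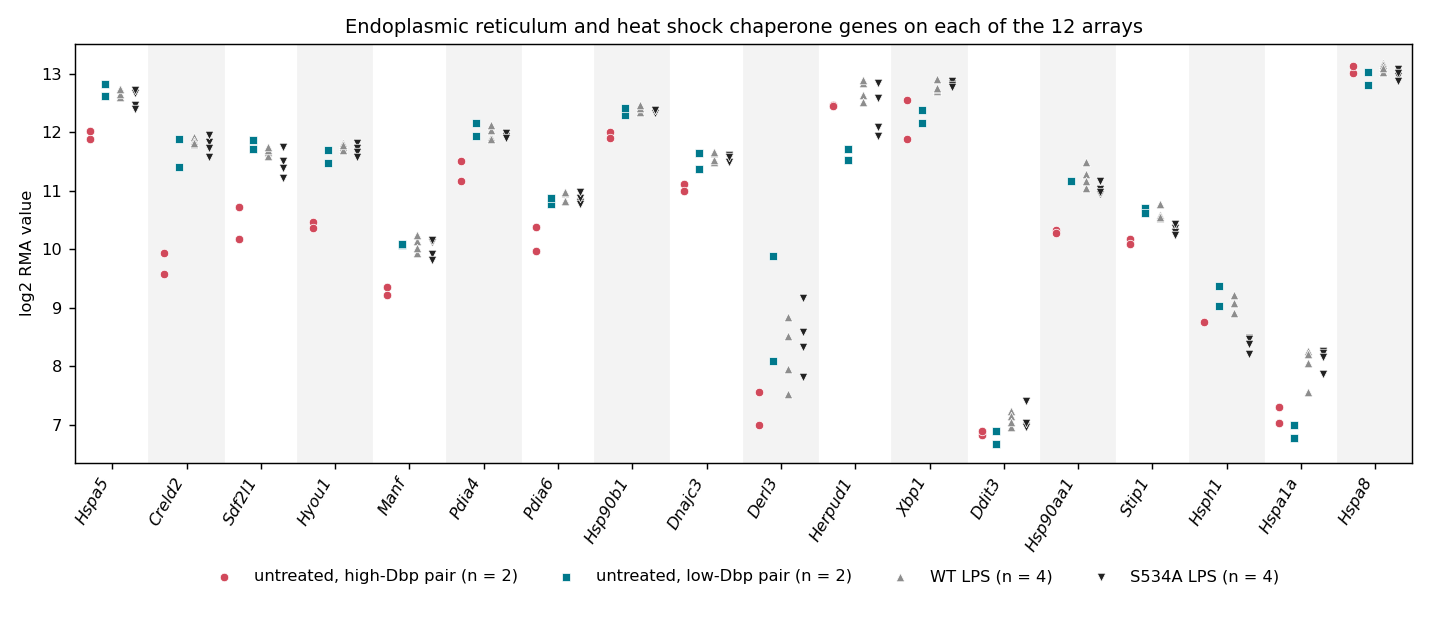
Log2 RMA value (vertical axis) of 18 chaperone and stress genes (horizontal axis) on each of the 12 arrays; every point is 1 array, coloured by pair or LPS group. From Hspa5 to Dnajc3 the high-Dbp pair lies below the low-Dbp pair and below all 8 LPS arrays, Herpud1 shows the reverse order between the pairs, and Xbp1 and Ddit3 overlap.

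Some signalling genes also stood apart. Bcl6, a repressor that growth hormone lowers, read 9.66 and 9.46 in the high-Dbp pair and 8.28 and 7.97 in the low-Dbp pair, a difference of 1.44. Socs3, the feedback inhibitor of cytokine signalling, read 8.46 and 8.95 against 7.20 and 7.38, a difference of 1.41, while its second probe set differed by 0.27. Myc, the growth-promoting transcription factor, read 8.82 and 9.36 against 6.99 and 7.73, a difference of 1.73. Nr4a1, an immediate early nuclear receptor, read 9.31 on replicate 2 alone and 6.57 to 6.87 on the other 3 livers, so that its difference of 1.39 is that of 1 liver. In the cell cycle list Ccne1 (cyclin E1) joined Wee1 among the genes apart, at 8.01 and 7.88 against 6.88 and 6.77. Among 13 glucocorticoid targets, 5 were higher and 0 lower with no overlap, and 8 overlapped. The 38.5% higher stood beside 22.2% of all genes, 43.8% of genes with a mean of 8 to 10 and 32.7% at 10 to 15. Of the 5, Per1 was apart and Fkbp5 differed by 0.79.

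Other genes varied widely among the untreated livers without following the pairs; Saa1, Saa2, Cish and Socs2 are named here after their values were seen. Saa1, an acute phase protein, read 8.16, 6.34, 5.36 and 7.45 on replicates 1 to 4, so that the highest and the lowest value both belonged to low-Dbp livers. Saa2 read 10.18, 8.16, 7.94 and 10.15, high on replicates 1 and 4. Cish, a growth hormone feedback gene, read 8.45, 8.18, 9.68 and 10.08, and Socs2, of the same family, 9.61, 8.90, 10.20 and 10.85, both high on replicates 3 and 4. Of 20 acute phase genes 4 were higher and 7 lower with no overlap, shares near the 22.2% and 34.0% of all genes, and 0 were apart at 2-fold. Orm2 differed by 0.94, Steap4 by 0.92 and Lcn2 by -0.92, the last with overlap. Of 15 interferon response genes 2 were higher and 3 lower with no overlap (13.3% and 20.0%) and 0 were apart, with Oasl1 at -0.87. The 4 untreated livers therefore differed along more than the division that Dbp gives.

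Hepatocyte markers were high and level in all 4 untreated livers, with list means of 13.42 and 13.39 in the low-Dbp pair and 13.44 and 13.45 in the high-Dbp pair. No gene of the 11 cell marker lists was apart at 2-fold, where 0.737% of all genes were. The lists held 3 to 17 measured genes each, so a count of 0 is near that share. It does not show that the cell composition of the livers was alike. Of 17 exocrine pancreas markers 11 were lower with no overlap and 0 higher (64.7% lower, beside 51.3% of all genes with a mean of 5 to 6). Their list means were 6.00 and 5.87 in the low-Dbp pair and 5.78 and 5.63 in the high-Dbp pair, and Try5 differed by -0.57. Of 5 cholangiocyte markers 4 were lower with no overlap (80.0%, beside 46.4% of all genes with a mean of 6 to 7), with list means of 6.41 and 6.40 against 6.18 and 6.11, and Sox9 differed by -0.54. In the stellate cell list Col1a1 differed by -0.52 and Lrat by 0.53. The Kupffer cell gene Cd163 differed by 0.67, while 10 of the 11 genes of that list overlapped and the list median was 0.02. Cidec of the adipocyte list, also a hepatocyte lipid droplet gene, differed by 0.89, where the list median was 0.17. In whole liver, fewer cells of a type and less RNA per cell cannot be told apart, and the part of these markers in the differences above was not tested.

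The 8 LPS arrays, which the rule did not use, ran from 8.36 to 9.47 for Dbp. The 4 WT LPS arrays read 8.80, 9.39, 9.47 and 9.47, and the 4 S534A LPS arrays 8.58, 8.91, 9.39 and 8.36. All 8 were above the low-Dbp pair and below the high-Dbp pair. Arntl ran from 7.37 to 8.83 on the same 8 arrays, between the pairs as well. Other clock genes were placed differently. Per3 ran from 6.09 to 6.46 and Usp2 from 6.47 to 7.33, near the low-Dbp pair, whereas Per1 ran from 7.94 to 8.90, near or within the range of the high-Dbp pair. Nfil3 ran from 9.15 to 10.21 and Nr1d1 from 11.74 to 12.02, above all 4 untreated livers, and Cry1 and Rora lay below all 4. The LPS livers did not match either pair across the clock genes.

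Because the untreated group spans both pairs, the difference between WT LPS and a control took its sign from the control for many genes. Dbp in WT LPS livers was 2.01 below the high-Dbp pair and 1.42 above the low-Dbp pair. Ciart was 1.32 below the one and 3.54 above the other. Arntl was 1.55 above the high-Dbp pair and 1.27 below the low-Dbp pair. The WT LPS mean lay between the pair means for 9 of 17 clock genes, above both for 2 and below both for 6. Of the 93 genes apart and higher in the high-Dbp pair, 49 lay between the pairs, 14 above both and 30 below both, and of the 54 apart and lower, 35 lay between, 4 above and 15 below. Of all 19938 genes, 5397 lay between the pairs, 7727 above both and 6814 below both. A wide difference between the pairs leaves more room between them, so the counts of apart genes between the pairs follow in part from how those genes were chosen.

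Pooled over the 4 untreated livers and tested with limma, 6 of the 17 clock genes passed for WT LPS against WT untreated, 2 higher and 4 lower. Over all genes 25.0% passed, 9.34% higher and 15.6% lower. Nr1d1 rose by 0.67 ± 0.21 (SE, n = 4 per group; limma adjusted p = 0.030) and Nfil3 by 1.05 ± 0.32 (adjusted p = 0.027). By limma, Cry1 fell by 0.63 ± 0.11 (adjusted p = 0.001), Cry2 by 0.81 ± 0.22 (adjusted p = 0.016), Rora by 0.39 ± 0.12 (adjusted p = 0.033) and Hlf by 0.65 ± 0.19 (adjusted p = 0.022). Of these 6 genes only Cry1 kept its call in every alternative run. By limma, Nr1d1 lost its call without untreated replicate 2 or 3 or WT LPS replicate 1, 2 or 3 (adjusted p = 0.053 to 0.088). Nfil3 lost it without untreated replicate 2 or 4 or WT LPS replicate 1 or 3 (limma adjusted p = 0.055 to 0.081). Rora lost it without untreated replicate 1, 2 or 3 or WT LPS replicate 2 or 4 (limma adjusted p = 0.058 to 0.076), and Hlf without untreated replicate 2 or 4 (0.066 and 0.064). Cry2 kept its call with each array left out, and lost it in a limma fit of the 2 groups alone (adjusted p = 0.051). Calls were also gained, by Per1 without untreated replicate 2 (1.47 ± 0.43; limma adjusted p = 0.029) and by Per2, Per3 and Tef without untreated replicate 1 or 3, the livers of the low-Dbp pair.

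Of the 30 genes with the widest gaps between the pairs, 15 in each direction, 6 passed in that test, where 25.0% of all genes passed. The 6 were Pfkfb3, Nrg4, Creld2, Gask1a, Nfil3 and Ddc, while Dbp, Arntl, Ciart and Per3 did not pass. The 30 genes were chosen for their spread on the untreated arrays, which enters the error of this test. Their count therefore cannot be weighed against the share of all genes. Dbp differed by -0.29 ± 0.72 (SE; limma adjusted p = 0.80), Arntl by 0.14 ± 0.64 (adjusted p = 0.90) and Ciart by 1.11 ± 1.04 (adjusted p = 0.48). Per3 differed by -1.19 ± 0.45 (limma adjusted p = 0.073) on all 12 arrays, and by -1.54 ± 0.43 (adjusted p = 0.021) without untreated replicate 1. The SD of the 4 untreated livers was 1.99 for Dbp, 2.92 for Ciart and 1.62 for Arntl, beside 0.32, 0.32 and 0.70 in the 4 WT LPS livers. A p that misses the threshold here does not show that LPS left these genes as they were.

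Of the 147 genes apart between the pairs, 47 passed for WT LPS against WT untreated (32.0%, beside 25.0% of all genes). In a limma fit of the 2 groups only, 30 passed (20.4%, beside 18.9% of all genes). The apart genes were chosen for their spread on the untreated arrays, which are 1 arm of this test and enter its error. The shares therefore cannot decide whether apart genes responded to LPS more often than other genes. On all 12 arrays, 10 of the 93 apart genes higher in the high-Dbp pair rose and 22 fell. Of the 54 apart and lower, 3 rose and 12 fell. Falls were also the more common call over all genes, of which 9.34% rose and 15.6% fell. Pancreas transcripts stood out on 3 LPS arrays, where the mean of the 17 exocrine pancreas markers was 8.21 (WT LPS replicate 2), 6.53 (WT LPS replicate 3) and 9.15 (S534A LPS replicate 3), beside 5.63 to 6.11 on the other 9 arrays. Without those 3 arrays, an alternative chosen after seeing the data, 17 of the 147 passed (11.6%, beside 16.2% of all genes). The share of the apart genes was thus above that of all genes on 12 arrays and below it on 9. Pfkfb3 rose by 1.97 (limma adjusted p = 0.011) and all 8 LPS arrays lay above all 4 untreated livers. Nrg4 rose by 1.90 (limma adjusted p = 0.015). Ddc, aromatic amino acid decarboxylase, fell by 1.39 (limma adjusted p = 0.0074) and Gask1a by 1.30 (adjusted p = 0.028), with all 8 LPS arrays below all 4 untreated livers. Creld2 rose by 1.15, near the threshold (limma adjusted p = 0.049).

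Some of these calls rested on single arrays. By limma, Creld2 kept its call without untreated replicate 1 or 3 and lost it without any 1 of the other 10 arrays (adjusted p = 0.063 to 0.14). Gask1a lost its call without untreated replicate 1 or 3 or WT LPS replicate 1 or 3 (limma adjusted p = 0.051 to 0.077). Pfkfb3, Nrg4 and Ddc kept theirs with each array left out and missed the threshold without the 3 pancreas arrays, where Pfkfb3 was 2.12 higher, Nrg4 1.91 higher and Ddc -1.39 from untreated (limma adjusted p = 0.068, 0.099 and 0.070).

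Between the LPS-treated genotypes, 0 of the 17 clock genes and 0 of the 147 apart genes passed the limma test of S534A LPS against WT LPS, beside 0.171% of all genes, 0.166% higher and 0.00502% lower. Dbp differed by -0.47 (95% interval -2.03 to 1.08), Arntl by 0.25 (-1.13 to 1.64) and Nfil3 by 0.52 (-0.16 to 1.20). Among the 17 clock genes Cry2 had the difference furthest from 0 relative to its error, at -0.73 (-1.21 to -0.26; limma adjusted p = 0.37). These intervals are wide for the strongly cycling genes, and they do not show that the genotypes were alike. The error of this test was taken from all arrays, the untreated ones included. The apart genes were chosen for their spread among the untreated arrays, which enters that error and makes a call less likely. The count of 0 of 147 therefore cannot decide whether apart genes differed between the genotypes. In a limma fit of the 2 groups only, 2 of the 147 apart genes and 0 of the 17 clock genes passed, beside 41 of all genes.

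Dbp also varied among the 8 LPS arrays, which allows a look at whether other clock genes varied with it on arrays that did not define the pairs. This was chosen after the values were seen, and 16 genes were correlated with Dbp. For 14 of the 16 the sign of the correlation was the sign of the difference between the pairs, Cry1 and Nr1d1 being the exceptions. By Pearson's r with an exact permutation test and Benjamini-Hochberg adjustment over the 16 genes, 5 passed. Tef had r = 0.88 (Spearman's rho 0.90; exact two-sided permutation p = 0.0032, adjusted 0.049), Nfil3 r = -0.90 (rho -0.81; p = 0.010, adjusted 0.049), Arntl r = -0.83 (rho -0.69; p = 0.015, adjusted 0.049), Ciart r = 0.83 (rho 0.74; p = 0.0095, adjusted 0.049) and Per2 r = 0.82 (rho 0.83; p = 0.015, adjusted 0.049). By Spearman's rho 0 of the 16 passed after adjustment, the smallest adjusted p being 0.073 for Tef in the exact permutation test.

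Leaving out the 2 arrays farthest from the median Dbp, S534A LPS replicates 1 and 4, r was 0.81 for Tef, -0.89 for Nfil3, -0.90 for Arntl, 0.94 for Per2 and 0.48 for Ciart, so that the relation of Ciart rests on those arrays. The mean of Dbp was lower on the S534A arrays by 0.47 with overlap between the genotypes, and with each genotype's mean removed 0 of the 16 genes passed the exact permutation test after adjustment (smallest 0.056, for Nr1d2). Within the 4 WT LPS arrays r was -0.98 for Arntl and 0.77 for Tef, and within the 4 S534A LPS arrays -0.86 and 0.88. In both genotypes 4 arrays are too few for a test. WT LPS replicate 1 stood far from the others for Dbp (8.80 against 9.39 to 9.47) and Arntl (8.83 against 7.37 to 7.52). The r of Arntl within WT LPS thus rests largely on replicate 1, which stayed in when the 2 farthest arrays were left out.

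**Figure D5:**
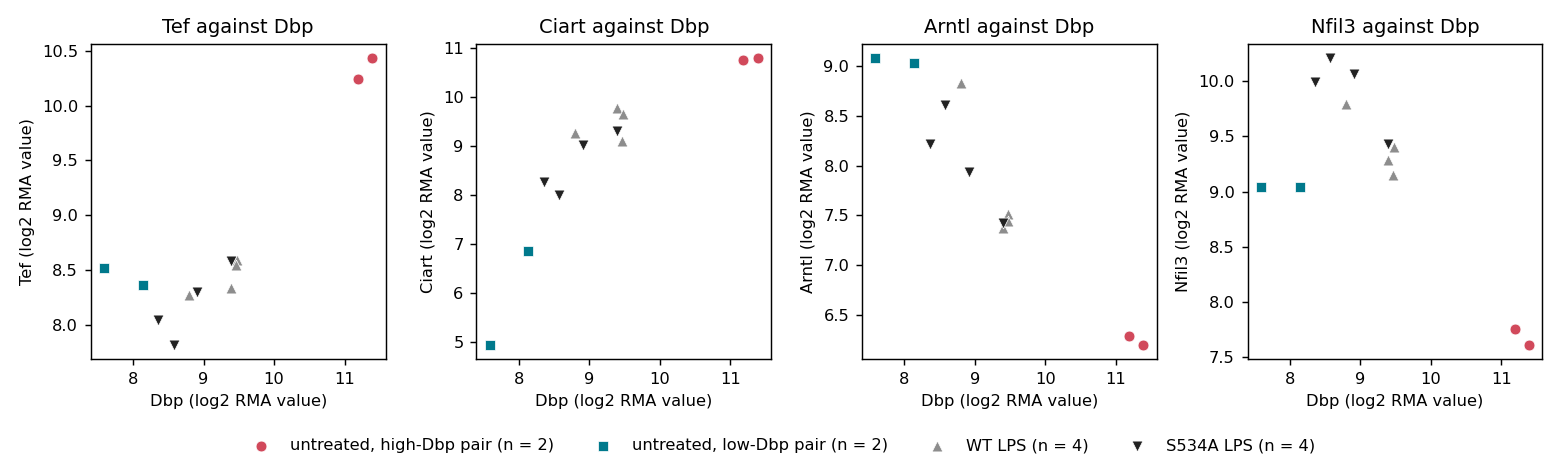
Log2 RMA value of Tef, Ciart, Arntl and Nfil3 (vertical axes) against that of Dbp (horizontal axes) on the 12 arrays; each point is 1 array, coloured by pair or LPS group. Among the LPS arrays Tef and Ciart increase with Dbp and Arntl and Nfil3 decrease, while the Tef and Nfil3 values of the LPS arrays lie off the line that joins the untreated pairs.

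Across the 92 apart genes other than Dbp that were higher in the high-Dbp pair, 23 (25.0%) had r above 0.5 with Dbp over the 8 LPS arrays, beside 6.15% of all genes. Of the 54 apart genes that were lower, 22 (40.7%) had r below -0.5, beside 15.3% of all genes. With genotype means removed the shares were 28.3% and 50.0%, beside 5.95% and 12.6%. These are descriptions across genes, which share the same 8 arrays and are not independent replicates, and most of the apart genes did not follow Dbp at that level among the LPS livers. The arrays with pancreas transcripts are among the 8, and their part in these shares was not tested.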

How the data were processed

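A total of 12 liver samples were measured on 12 arrays. The log2 values deposited by the authors come from RMA, per the submitters' processing notes; the sources name neither its version nor a genome build. Of 35556 probe sets, 21789 carried 1 symbol, and for genes with several the probe set with the highest mean was used, which left 19938 genes. Symbols were updated through Entrez identifiers for 21698 of the 21789. Replicates are numbered in the order of their labels, and no replicate number pairs samples across groups by the labels.

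The pairs of untreated livers were compared by each array's value and the difference of pair means, without a test. A gene was called apart when the pairs did not overlap and differed at least 2-fold. LPS comparisons used limma 3.58.1 in R 4.3.3 on all 12 arrays (9 residual and 3.54 prior degrees of freedom), two-sided, with Benjamini-Hochberg adjustment over all genes and a threshold of 0.05. The limma script was tested on simulated data. Named genes were all measured clock genes, the 15 widest gaps in each direction (predicted genes and clones left out), and the 2 to 4 members of each other list with the largest absolute difference. The pairs and the lists were chosen with earlier results of these data known. Alternatives were each array left out, other fold marks, other probe set rules, a dim filter at 6, repeated quantile normalisation, median centring, trend and robust settings, a fit of 2 groups, a replicate block and, chosen after seeing the data, level matching and leaving out 3 arrays with pancreas transcripts. Promoter windows of 250 bases came from RefSeq (GRCm38.p6).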

Additional observations from a re-analysis of the deposited data

Results flagged for a closer look

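For the 95 genes described by name, each of the 3 label groups of 4 arrays was checked for a single array far from the other 3, which makes 285 groups, and 12 had such an array. Chance flags about 1 in 20 groups.

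In the WT LPS group, 3 genes stood out on replicate 1. Arntl read 8.83 there and 7.37 to 7.52 on the other 3 arrays, Dbp 8.80 against 9.39 to 9.47, and Tubb2a 10.27 against 9.29 to 9.43. On WT LPS replicate 2, Clock read 9.24 against 9.72 to 9.76, Ccne1 7.58 against 7.78 to 7.81 and Col1a1 8.12 against 7.67 to 7.72. Foxq1 read 9.09 on WT LPS replicate 3 against 8.19 to 8.29. On WT LPS replicate 4, Lrat read 8.01 against 7.32 to 7.43 and Steap4 13.45 against a narrow 13.39 on the others.

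Among the untreated livers the far array belonged to the high-Dbp pair in each of the 3 cases. Ctse read 10.06 on replicate 4 against 5.62 to 5.66, Nr4a1 9.31 on replicate 2 against 6.57 to 6.87, and Cyp4a14 10.43 on replicate 2 against 11.96 to 12.18.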

How the results depend on the processing

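Among the named genes that were apart, no difference between the pairs changed its direction in any setting run. Of the named genes that were not apart, Cry1, Nr1d1, Rora, Cish, Socs2, Xbp1, Ddit3, Saa1 and Saa2, all with differences under 0.15, changed sign in at least 1 setting. The count of 147 genes apart (93 higher, 54 lower) was 689 (475 and 214) at 1.5-fold and 38 (23 and 15) at 3-fold. Leaving out 1 untreated array in turn gave 164 to 206 (93 to 144 higher, 59 to 72 lower), with 10 to 11 clock genes apart and 14 to 17 not overlapping; a lone array cannot overlap with itself, so these counts can only grow where the fold allows. For WT LPS against WT untreated, 4158 to 4963 genes passed with 1 array left out and 3227 without the 3 arrays with pancreas transcripts. Clock genes called there ran from 3 (without untreated replicate 2) to 8 (without untreated replicate 1), and were 2 in a fit of only the 2 groups and 2 without the pancreas arrays. Apart genes called ran from 35 to 55 and were 30 and 17 in those fits. For S534A LPS against WT LPS the count of 34 ran from 9 (without WT LPS replicate 3) to 121 (without WT LPS replicate 1) and was 1 without the pancreas arrays; 2 apart genes passed in the fit of only the 2 groups. With a replicate block that count was 17. Deviations of same-numbered arrays correlated at -0.27 to 0.21 across groups. Differently numbered arrays were not compared in this way, so these values cannot decide whether same-numbered arrays were paired. The cause of these changes was not tested.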

Other observations

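A few of the genes counted as apart rest on 1 liver. Ctse, which encodes cathepsin E, read 10.06 on untreated replicate 4 and 5.62 to 5.66 on the other 3, and its pairs were separated by only 0.01. Of the 93 genes apart and higher in the high-Dbp pair, 3 (Ctse, Nr4a1 and Foxq1) had a gap under 0.2, and of the 54 apart and lower, 0 did. These genes were chosen after their values were seen.

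Nr1i3 and Cyp2b10, a receptor and a P450 gene that it induces, were both higher in the high-Dbp pair but went opposite ways after LPS. For WT LPS against WT untreated, Nr1i3 fell by 2.23 ± 0.28 and Cyp2b10 rose by 1.87 ± 0.41 (SE; limma adjusted p = 0.004 for Cyp2b10). Acot4, which was 2.54-fold higher in the high-Dbp pair, fell by 1.66 ± 0.30.

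Of 13767 probe sets with no symbol or several, 133 were apart and higher and 17 apart and lower in the high-Dbp pair. Of the 19938 genes, 93 (0.466%) were apart and higher and 54 (0.271%) apart and lower. The levels of those probe sets were not compared with the levels of the genes. The part of the array-wide and level-dependent differences in the counts of those probe sets was not tested.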
